A study of Caenorhabditis elegans with 14 samples.

Results

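The Hedgehog-related and patched-related genes of *C. elegans* were taken as all rows of the gene counts whose name begins with wrt-, grd-, grl- or ptr-. This gave 80 genes of 42048, with 10 in the wrt (warthog) family, 16 in the grd (groundhog) family, 31 in the grl (ground-like) family and 23 in the ptr (patched-related) family. They were measured by RNA-seq of whole, synchronized larvae in 7 strain and stage groups, as part of a study of NFKI-1 and IKB-1, the nematode homologs of the mammalian IκB proteins. At L4, 36 h into growth at 25 °C, the groups were *nfki-1(cer1)*, a CRISPR deletion near the second exon that brings in a premature stop codon, *ikb-1(nr2027)*, a deletion that removes sequence of the ankyrin repeats, the double mutant of these 2 alleles, and WT (N2 Bristol). At L1, with 5 h of feeding and 3 h of starvation at 25 °C, the groups were *nfki-1(cer2)*, another CRISPR allele with a premature stop codon, *ikb-1(cer9)*, a deletion that includes the start codon, and WT. The alleles at L1 are not those at L4, each allele is represented by 1 strain, and each library was made from a population of animals. The extraction protocol in the labels also lists a collagenase step, cell sorting and LD-PCR, and the methods for these larvae name none of them.

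WRT, GRD and GRL proteins are secreted and carry cysteine-rich or related domains. Some of the WRT proteins and some of the GRD proteins also carry the self-cleaving Hog domain of Hedgehog, and the GRL proteins do not. PTR proteins, like Patched, cross the membrane many times and contain a sterol-sensing domain. The nematode has neither a Hedgehog with the classical signalling domain nor Smoothened, and these families are known mainly from the epidermis, glia and other cells that lay down apical matrix. Many of them are transcribed in pulses, once in each molt cycle, so that their level in whole animals depends on how far a population is into the cycle.

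Reads counted on genes came to between 19735958 and 22373456 per file at L4 and between 57740500 and 63394016 per library at L1. The 2 files of each L4 strain differed, apart from a difference that all strains shared, by 0.476 to 0.575 times the counting variance, against 7.24 to 13.6 times between L1 replicates, so each pair was averaged and counted as 1 sample. Levels are given as CPM, in which a gene's count is divided by the reads on all genes of its library after TMM scaling. The targeted genes were lower in their mutants: *nfki-1* (C33A11.1 in the files) was at 7.26 CPM in *nfki-1(cer1)* larvae and 8.09 in the double mutant against 41.9 in L4 WT, and *ikb-1* was at 3.60 CPM in *ikb-1(nr2027)* larvae and 3.07 in the double mutant against 13.3 in L4 WT. Each was also lower in the other L4 single mutant, with *nfki-1* at 26.2 CPM in *ikb-1(nr2027)* larvae and *ikb-1* at 6.15 CPM in *nfki-1(cer1)* larvae. At L1, *nfki-1* was at 71.7 and 92.9 CPM in *nfki-1(cer2)* larvae against 139 and 148 in WT, and *ikb-1* was at 1.53 and 2.61 CPM in *ikb-1(cer9)* larvae against 45.7 and 49.6 in WT. The other L1 mutant had 138 and 167 CPM of *nfki-1* (*ikb-1(cer9)* larvae) and 38.2 and 38.7 CPM of *ikb-1* (*nfki-1(cer2)* larvae). Of the 80 genes, 76 passed the filter on low counts, and *grl-26*, *grl-29*, *grl-30* and *grl-31* did not, with 3 to 29.5 counts in all samples together. In whole animals, fewer cells of a type and less RNA per cell cannot be told apart.

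The annotation placed 32 of the 80 genes on chromosome V, 19 of them from the grl family. The ptr genes were spread over chromosomes I (7 genes), II (6), V (4), X (3), III (2) and IV (1), and the wrt genes over X (4), II (2), IV (2) and V (2). The span of another annotated gene overlapped 25 of the 80, and whether the counting used strand is not given in the sources used here. Among the genes described with values below this holds for *wrt-2*, *grl-10*, *grl-15*, *ptr-1*, *ptr-10* and *ptr-18*.

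In WT larvae the sum of each family was higher at L4 than at L1, to differing degrees. Summed over the family, the wrt genes had 1543 CPM in L4 WT against 21.8 and 32.2 CPM in the L1 WT libraries, and the grl genes 2174 CPM against 117 and 175 CPM. The grd genes summed to 942 CPM in L4 WT against 84.1 and 253 CPM in L1 WT. The ptr genes differed least, with 1426 CPM in L4 WT against 718 and 768 CPM in L1 WT. L4 WT had 16 of the 80 genes at 100 CPM or more, where the L1 WT libraries had 3 and 2.

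For comparing genes with each other, levels were divided by the length of the annotated exons. In L4 WT the highest genes on this scale were *grd-5* at 717 CPM per kb, *grl-16* at 706, *grd-14* at 362, *wrt-6* at 292 and *grl-7* at 288. In L1 WT they were *grd-13* at 106 CPM per kb, *grl-21* at 64.2, *grl-4* at 59.6, *grd-10* at 59.3 and *grd-3* at 57.7. These are means of libraries that differed, with *grd-13* at 43.9 and 168 CPM per kb and *grl-4* at 79.5 and 39.7 CPM per kb, and *grd-10* and *grd-3* were among the 5 highest in only one of them. The highest ptr genes on this scale were *ptr-18* at 71.2 and *ptr-21* at 58.6 CPM per kb in L4 WT, and *ptr-24* at 33 and *ptr-21* at 32 CPM per kb in L1 WT.

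The first comparison was of L4 WT against L1 WT, each collected at a single time. With edgeR's quasi-likelihood test and an adjusted p below 0.01, 28 of the 76 genes were higher in L4 WT, where 10.6% of all 21248 genes tested were called higher, and 3 were lower, where 10.7% of all genes were called lower. The median log2 difference was 2.05 over the 76 genes and -0.65 over all genes. By family, the genes called higher were 7 of 10 wrt, 4 of 16 grd, 9 of 27 grl and 8 of 23 ptr genes. With each library left out in turn, 22 to 28 were called higher and 2 to 4 lower. Marker lists moved between the stages too, and their part in the result was not tested. The 4 pharynx markers summed to 38.5 CPM in L4 WT against 4156 and 5980 CPM in L1 WT, and the 5 neuron markers to 327 CPM against 1149 and 1050 CPM. The 6 hypodermis markers summed to 5612 CPM against 89.7 and 93.2 CPM. Of these 6, 4 were at least 2-fold higher in L4 WT and 1 was at least 2-fold lower. With libraries scaled by their totals alone, the median log2 difference was 1.54 over the 76 genes and -1.16 over all genes. That of the ptr genes was then 0.11, where it was 0.70 with TMM scaling. Stage, feeding history and sequencing depth cannot be told apart here, and L4 WT is 1 sample.

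Among the wrt genes, *wrt-6* was at 574 CPM in L4 WT against 1.47 and 3.13 CPM in L1 WT. This was a log2 difference of 7.97 (SE 0.613, edgeR adjusted p = 6.68e-04). *wrt-4* was at 283 CPM in L4 WT against 0.422 and 1.32 CPM in L1 WT, 8.35 on the log2 scale (SE 1.09, adjusted p = 0.00249). *wrt-10* was at 271 CPM against 1.22 and 2.04 CPM, 7.38 on the log2 scale (SE 0.857, adjusted p = 0.00182). All 10 wrt genes were above the mean of L1 WT, and the 3 that did not pass the test were *wrt-3*, *wrt-5* and *wrt-7*. *wrt-5*, which is needed in the embryo, was at 16.2 CPM in L4 WT against 6.55 and 8.92 CPM in L1 WT.

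The largest log2 differences between the stages among genes of at least 1 CPM were those of *grl-27*, *wrt-4* and *grl-5*. *grl-27* was at 6.42 CPM in L4 WT and had 1 read in the L1 WT libraries together, a fitted log2 difference of 9.23 (SE 1.19, adjusted p = 0.00386) that rests on that read. *grl-5* was at 238 CPM in L4 WT against 0.306 and 1.25 CPM in L1 WT, 8.27 on the log2 scale (SE 1.04, adjusted p = 0.00226). *grl-16* was at 1187 CPM in L4 WT against 10.2 and 42.3 CPM in L1 WT, 5.50 on the log2 scale (SE 0.907, adjusted p = 0.00529). Both L1 libraries of *grl-16* lay far below L4, about 4-fold apart from each other.

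The 3 genes called lower in L4 WT were all of the ptr family. *ptr-5* was at 8.04 CPM in L4 WT against 56.3 and 77.1 CPM in L1 WT, a log2 difference of -3.05 (SE 0.335, adjusted p = 0.00155). *ptr-22* was at 2.17 CPM in L4 WT against 18.7 and 28.9 CPM in L1 WT, -3.45 on the log2 scale (SE 0.460, adjusted p = 0.00267). *ptr-19* was at 0.122 CPM against 1.73 and 1.77 CPM, -3.81 on the log2 scale (SE 0.690, adjusted p = 0.00719). *grl-6* had no read in L4 WT and 273 reads in the L1 WT libraries, which makes it at least 11.8-fold lower in L4 WT when the floor is set at 3 reads in the L4 sample. The L1 WT libraries were at 3.00 and 1.17 CPM, and against the second of them alone the bound is 6.36-fold. Its adjusted p was 0.0125. *ptr-21* and *ptr-23* were at 199 and 110 CPM in L4 WT, and neither was called, with adjusted p of 0.0322 and 0.526.

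**Figure D1:**
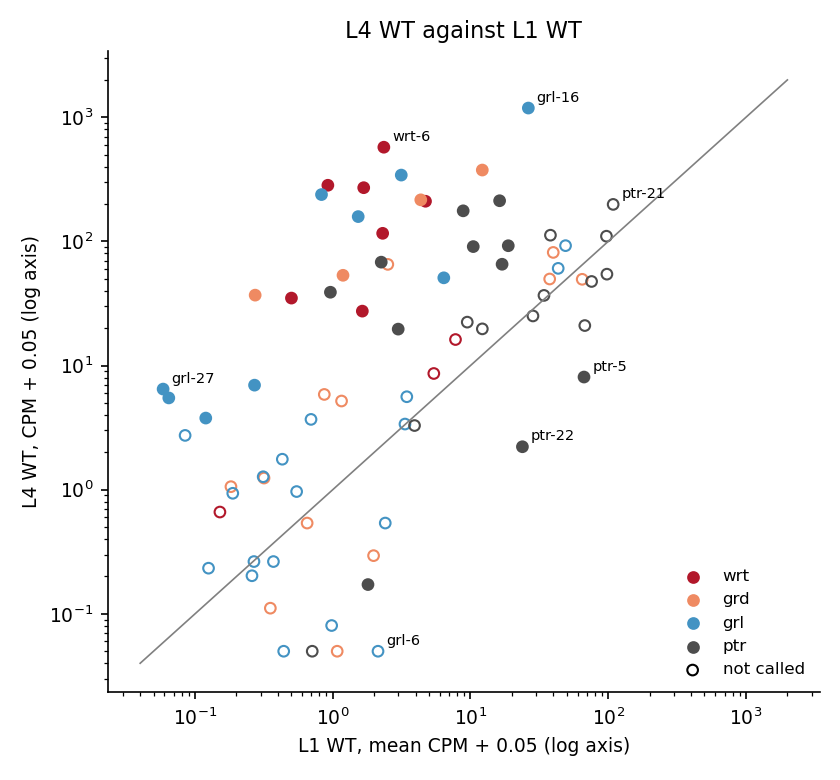
CPM in L4 WT (vertical) against mean CPM in L1 WT (horizontal) of the 76 genes tested, both plus 0.05 and on log axes, coloured by family, with filled points for genes called at an adjusted p below 0.01 and the line of equal levels in grey. The wrt genes sit above the line and *ptr-5* and *ptr-22* sit below it.

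The next comparisons were of each L4 mutant with L4 WT. In both single mutants the level of most of these genes was below that of WT. In *nfki-1(cer1)* 47 of the 76 genes were at least 2-fold lower than in WT, where 23.7% of all genes were, and 4 were at least 2-fold higher, where 25.2% of all genes were. In *ikb-1(nr2027)* 48 were at least 2-fold lower, against 22.4% of all genes, and 6 were at least 2-fold higher, against 23.6%. The double mutant had 29 at least 2-fold lower, against 10.7% of all genes, and 6 at least 2-fold higher, against 17.8%. The median log2 difference of the 76 genes was -1.52 in *nfki-1(cer1)* larvae, -1.40 in *ikb-1(nr2027)* larvae and -0.57 in the double mutant. Summed over all 80 genes, the level was 1917 CPM in *nfki-1(cer1)* larvae, 2467 in *ikb-1(nr2027)* larvae and 5567 in the double mutant, against 6085 in WT. The 3 comparisons share 1 WT sample, so they are not separate observations of WT.

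These folds describe the samples and are not a test. With 1 sample per strain at L4, edgeR's test takes its spread from the L1 replicates and assumes that L4 populations vary as those do. At an adjusted p below 0.01, 0 of the 76 genes were called in *nfki-1(cer1)* larvae, where 2% of all genes were called, 0 in *ikb-1(nr2027)* larvae, where 0.579% were, and 0 in the double mutant, where 0% were. At an unadjusted p below 0.05 there were 25 lower and 3 higher genes in *nfki-1(cer1)* larvae, where 15.9% and 15.3% of all genes were, 26 lower and 1 higher in *ikb-1(nr2027)* larvae, where 13.9% and 14.2% were, and 12 lower and 3 higher in the double mutant, where 4.37% and 7.18% were. DESeq2 called 15 genes lower in *nfki-1(cer1)* larvae, where it called 5.96% of all genes lower, 4 in *ikb-1(nr2027)* larvae, against 3.54%, and 3 in the double mutant, against 0.63%. It called none of the 76 higher, where it called 1783, 1529 and 351 of all genes higher in these strains. The L1 replicate numbers mark shared differences between strains, and a fit with the replicate block called 11 genes lower in *nfki-1(cer1)* larvae, against 4.67% of all genes, 4 lower in *ikb-1(nr2027)* larvae, against 2.55%, and 0 in the double mutant.

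TMM scaling bears on the sizes. When libraries were scaled by their totals alone, the median log2 difference of the 76 genes was -1.0 in *nfki-1(cer1)* larvae, -0.94 in *ikb-1(nr2027)* larvae and -0.34 in the double mutant. The median over all genes of at least 1 CPM was then 0.31, 0.26 and 0.10 in these strains, against -0.20, -0.18 and -0.11 with TMM scaling. With totals alone, 38 genes were at least 2-fold lower and 7 at least 2-fold higher in *nfki-1(cer1)* larvae, and 34 and 9 in *ikb-1(nr2027)* larvae. Genes with no read in a sample were given no fold or a bound, which left 46 lower and 1 higher in *nfki-1(cer1)* larvae (median -1.55), 46 and 3 in *ikb-1(nr2027)* larvae (median -1.41), and 28 and 5 in the double mutant (median -0.63).

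All 10 wrt genes were below WT in both single mutants, under TMM scaling and under totals alone. At least 2-fold lower were 10 of 10 in *nfki-1(cer1)* larvae and 9 of 10 in *ikb-1(nr2027)* larvae, and 5 of 10 in the double mutant. Summed over the family, the level was 229 CPM in *nfki-1(cer1)* larvae, 318 in *ikb-1(nr2027)* larvae and 706 in the double mutant, against 1543 in WT. *wrt-10* was at 14.5 CPM in *nfki-1(cer1)* larvae, 18.4 in *ikb-1(nr2027)* larvae and 22.2 in the double mutant, against 271 in WT. All 3 mutants lay more than 10-fold under WT and close to each other. The log2 difference of *wrt-10* was -4.23 in *nfki-1(cer1)* larvae (SE 1.0, adjusted p = 0.0431), -3.88 in *ikb-1(nr2027)* larvae (SE 0.988, adjusted p = 0.0630) and -3.61 in the double mutant (SE 0.976, adjusted p = 0.223).

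*wrt-1* was at 16.2 CPM in *nfki-1(cer1)* larvae, 19.6 in *ikb-1(nr2027)* larvae and 37 in the double mutant, against 211 in WT. Its log2 difference was -3.70 in *nfki-1(cer1)* larvae (SE 0.913, adjusted p = 0.0473), and the adjusted p was 0.00438 with the block, within a range of 1.21e-04 to 0.0713 over the alternatives other than the 2 L4 files taken as replicates, which hold no separate populations and are left out of such ranges here. In *ikb-1(nr2027)* it was -3.43 (SE 0.902, adjusted p = 0.0675), and 0.00683 with the block, within 5.65e-04 to 0.0999 over the same alternatives. *wrt-2*, whose promoter is used to mark seam cells, was at 10.7 CPM in *nfki-1(cer1)* larvae, 13.4 in *ikb-1(nr2027)* larvae and 19.4 in the double mutant, against 116 in WT. Like *wrt-1*, it stayed well under WT in the double mutant.

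*wrt-6* and *wrt-4* were low in the single mutants and nearer to WT in the double mutant. *wrt-6* was at 104 CPM in *nfki-1(cer1)* larvae, 144 in *ikb-1(nr2027)* larvae and 299 in the double mutant, against 574 in WT. *wrt-4* was at 53.3 CPM in *nfki-1(cer1)* larvae, 89.3 in *ikb-1(nr2027)* larvae and 241 in the double mutant, against 283 in WT. The log2 difference of *wrt-4* was -2.41 in *nfki-1(cer1)* larvae (SE 1.13, adjusted p = 0.211), -1.67 in *ikb-1(nr2027)* larvae (SE 1.10, adjusted p = 0.395) and -0.23 in the double mutant (SE 1.07, adjusted p = 1). Of the family, *wrt-8* and *wrt-5* were above WT in the double mutant, by 0.51 and 0.13 on the log2 scale, which is less than their SE.

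**Figure D2:**
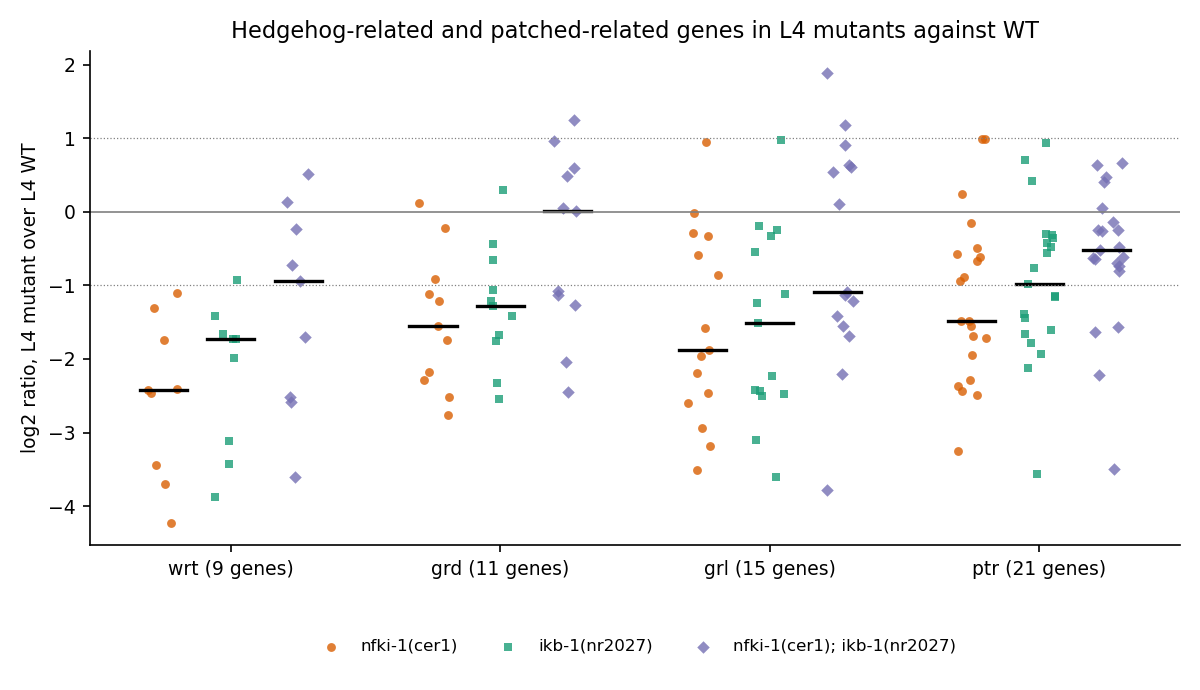
Log2 ratio of each L4 mutant to L4 WT (vertical) for the 56 genes that average 1 CPM or more over the 7 groups, by family and strain, with 1 point per gene, medians as black bars and dotted lines at 2-fold. In each family the medians of both single mutants lie below 0, at -2.43 and -1.73 for the wrt genes, and that of the double mutant lies closer to 0 or on it.

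Of the 16 grd genes, 11 were at least 2-fold lower in *nfki-1(cer1)* larvae, 11 in *ikb-1(nr2027)* larvae and 6 in the double mutant, and 1 was at least 2-fold higher in each strain. With totals alone these were 9, 6 and 4 lower in the 3 strains, and 1, 1 and 2 higher. The family summed to 399 CPM in *nfki-1(cer1)* larvae, 531 in *ikb-1(nr2027)* larvae and 1304 in the double mutant, against 942 in WT. The 3 grd genes of highest mean level were *grd-5*, *grd-14* and *grd-3*. *grd-5* was at 128 CPM in *nfki-1(cer1)* larvae, 180 in *ikb-1(nr2027)* larvae and 570 in the double mutant, against 376 in WT. *grd-14* was at 93.5 CPM in *nfki-1(cer1)* larvae, 138 in *ikb-1(nr2027)* larvae and 422 in the double mutant, against 216 in WT. In both genes the single mutants were below WT and the double mutant above it. *grd-3* differed from them, at 88.7 CPM in *nfki-1(cer1)* larvae, 100 in *ikb-1(nr2027)* larvae and 82.1 in the double mutant, against 81.5 in WT, with adjusted p of 1 in each. *grd-6*, one of the 3 largest increases in the double mutant, was at 34.7 CPM in *nfki-1(cer1)* larvae, 48.2 in *ikb-1(nr2027)* larvae and 155 in the double mutant, against 65.3 in WT. None of these 4 genes passed the test in any mutant. With totals alone, *grd-6* was level with WT in *ikb-1(nr2027)* larvae (0.01 on the log2 scale).

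*grd-1* and *grd-13* were singled out after their values were seen. *grd-1* was at 10.9 CPM in *nfki-1(cer1)* larvae, 15.8 in *ikb-1(nr2027)* larvae and 12.9 in the double mutant, against 53.3 in WT. *grd-13* was at 8.65 CPM in *nfki-1(cer1)* larvae, 8.49 in *ikb-1(nr2027)* larvae and 9.04 in the double mutant, against 49.5 in WT. The mutants were close to each other and 3-fold or more under WT in both genes.

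In the grl family, 15 of 27 tested genes were at least 2-fold lower in *nfki-1(cer1)* larvae, 18 in *ikb-1(nr2027)* larvae and 14 in the double mutant, and 2, 3 and 4 were at least 2-fold higher. The family summed to 555 CPM in *nfki-1(cer1)* larvae, 785 in *ikb-1(nr2027)* larvae and 2487 in the double mutant, against 2174 in WT. *grl-16* was at 306 CPM in *nfki-1(cer1)* larvae, 504 in *ikb-1(nr2027)* larvae and 1810 in the double mutant, against 1187 in WT. Its log2 difference was -1.96 in *nfki-1(cer1)* larvae (SE 1.04, adjusted p = 0.267), -1.23 in *ikb-1(nr2027)* larvae (SE 1.02, adjusted p = 0.511) and 0.61 in the double mutant (SE 1.01, adjusted p = 0.955). The single mutants and the double mutant thus lay on opposite sides of WT. *grl-27* had the same order of strains at a low level, with 1.74 CPM in *nfki-1(cer1)* larvae, 5.11 in *ikb-1(nr2027)* larvae and 23.7 in the double mutant, against 6.42 in WT. *grl-4* was at 73.6 CPM in *nfki-1(cer1)* larvae, 77.9 in *ikb-1(nr2027)* larvae and 209 in the double mutant, against 92.4 in WT, and with totals alone both single mutants were above WT. With totals alone *grl-27* too was above WT in *ikb-1(nr2027)* larvae.

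*grl-7*, *grl-5* and *grl-15* were lowest in the single mutants and stayed under WT in the double mutant. *grl-7* was at 44.5 CPM in *nfki-1(cer1)* larvae, 61.5 in *ikb-1(nr2027)* larvae and 148 in the double mutant, against 342 in WT. *grl-5* was at 26.2 CPM in *nfki-1(cer1)* larvae, 42.0 in *ikb-1(nr2027)* larvae and 112 in the double mutant, against 238 in WT, and *grl-15* at 13.9 CPM in *nfki-1(cer1)* larvae, 18.5 in *ikb-1(nr2027)* larvae and 54 in the double mutant, against 158. For *grl-15* in *nfki-1(cer1)* larvae the log2 difference was -3.51 (SE 1.13, adjusted p = 0.0915). *grl-7* and *grl-5* were called lower in *nfki-1(cer1)* larvae by the fit with the block, at adjusted p of 0.00568 and 0.00786, where the alternatives ranged up to 0.218 and 0.152.

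*grl-25* and *grl-23*, both of low level, followed the *ikb-1* allele. *grl-25* was at 4.47 CPM in *nfki-1(cer1)* larvae, 0.447 in *ikb-1(nr2027)* larvae and 0.394 in the double mutant, against 5.44 in WT. *grl-23* was at 2.33 CPM in *nfki-1(cer1)* larvae, 0.397 in *ikb-1(nr2027)* larvae and 0.141 in the double mutant, against 2.69 in WT. Both genes were low in the 2 strains that carry *ikb-1(nr2027)* and near WT in *nfki-1(cer1)* larvae, and none of these differences passed the test. The log2 difference of *grl-25* in *ikb-1(nr2027)* larvae was -3.60 (SE 1.28, adjusted p = 0.130), and that between the double mutant and *nfki-1(cer1)* was -3.49 (SE 1.30, adjusted p = 0.212).

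**Figure D3:**
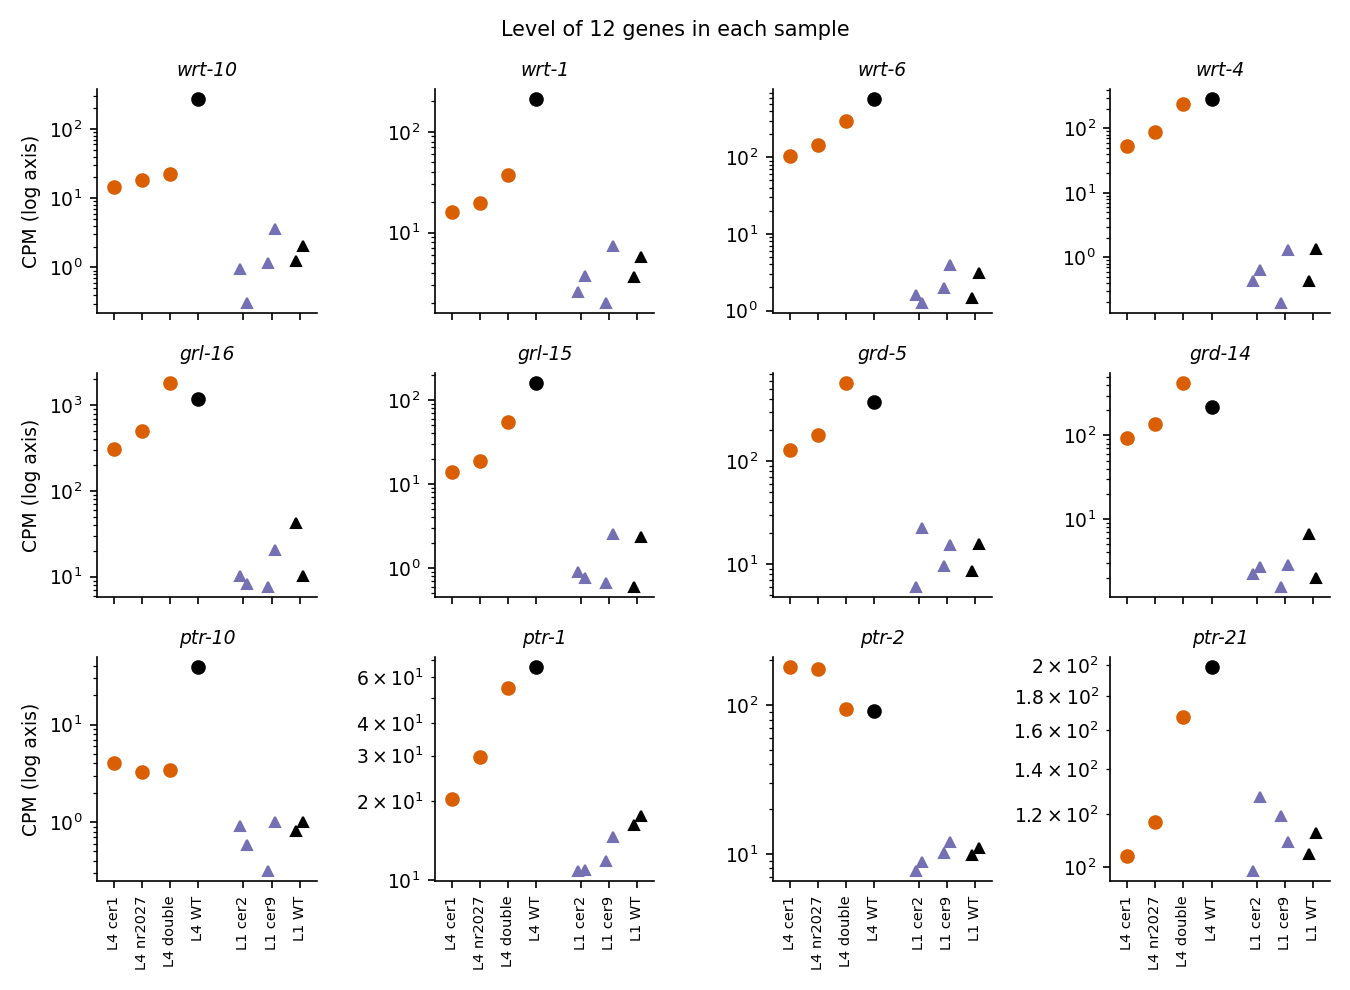
CPM on log axes of 12 genes in each L4 strain, as the mean of its 2 files (circles, mutants in orange and WT in black), and in each L1 library (triangles, mutants in purple and WT in black). *wrt-10* and *ptr-10* are low in all L4 mutants, *grl-16*, *grd-5* and *grd-14* are highest in the double mutant, and *ptr-2* is higher in the single mutants, at 180 and 174 CPM, than in the other L4 strains.

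Of the 23 ptr genes, 11 were at least 2-fold lower in *nfki-1(cer1)* larvae, 10 in *ikb-1(nr2027)* larvae and 4 in the double mutant, and 1, 2 and 1 were at least 2-fold higher. With totals alone these were 9, 6 and 4 lower and 3, 4 and 1 higher in the 3 strains, and the median log2 difference of the family in *ikb-1(nr2027)* larvae was -0.31, where it was -0.77 with TMM scaling. The family summed to 733 CPM in *nfki-1(cer1)* larvae, 834 in *ikb-1(nr2027)* larvae and 1071 in the double mutant, against 1426 in WT. *ptr-10*, whose promoter is used to mark glia, was at 4.07 CPM in *nfki-1(cer1)* larvae, 3.28 in *ikb-1(nr2027)* larvae and 3.44 in the double mutant, against 38.9 in WT. Its log2 difference was -3.26 in *nfki-1(cer1)* larvae (SE 0.795, adjusted p = 0.0462), -3.57 in *ikb-1(nr2027)* larvae (SE 0.810, adjusted p = 0.0475) and -3.50 in the double mutant (SE 0.809, adjusted p = 0.162). As for *wrt-10*, the mutants lay closer to each other than these errors.

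*ptr-1* was at 20.4 CPM in *nfki-1(cer1)* larvae, 29.5 in *ikb-1(nr2027)* larvae and 54.4 in the double mutant, against 65.4 in WT. In *nfki-1(cer1)* its log2 difference was -1.68 (SE 0.279, adjusted p = 0.0168), with 0.00395 under the block and a range of 8.0e-05 to 0.0497 over the same alternatives. *ptr-18*, which the block called in both single mutants, was at 41.3 CPM in *nfki-1(cer1)* larvae, 62 in *ikb-1(nr2027)* larvae and 139 in the double mutant, against 213 in WT. The 4 genes that the fit with the block called lower in *ikb-1(nr2027)* larvae were *wrt-1*, *wrt-2*, *grl-10* and *ptr-18*. *grl-10* was at 9.19 CPM in *nfki-1(cer1)* larvae, 9.48 in *ikb-1(nr2027)* larvae and 19.1 in the double mutant, against 50.9 in WT, and its annotation overlaps that of *rpl-39*.

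*ptr-2* went the other way. It was at 180 CPM in *nfki-1(cer1)* larvae, 174 in *ikb-1(nr2027)* larvae and 94.1 in the double mutant, against 90.8 in WT. Its log2 difference was 0.99 in *nfki-1(cer1)* larvae (SE 0.274, adjusted p = 0.0624), 0.94 in *ikb-1(nr2027)* larvae (SE 0.273, adjusted p = 0.0856) and 0.05 in the double mutant (SE 0.271, adjusted p = 1). *ptr-13* was at 41.8 CPM in *nfki-1(cer1)* larvae, 34.0 in *ikb-1(nr2027)* larvae and 27.7 in the double mutant, against 21 in WT, and *ptr-24* at 64.5 CPM in *nfki-1(cer1)* larvae, 72.8 in *ikb-1(nr2027)* larvae and 49.6 in the double mutant, against 54.4. These were the 3 largest increases in both single mutants among genes of at least 1 CPM in that comparison, and none passed the test. *ptr-21* and *ptr-23* ranged from 104 to 199 CPM and from 74.3 to 174 CPM over the 4 L4 strains.

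The double mutant was also set against each single mutant, a comparison chosen after the values were seen. Against *nfki-1(cer1)*, 33 of the 76 genes were at least 2-fold higher in the double mutant, where 16.3% of all genes were, and against *ikb-1(nr2027)* 27 were, where 14.7% of all genes were. Without the block, no gene of the 76 passed edgeR's test in either comparison, and neither did any of all genes. With the block, none of the 76 passed either, though some of all genes did against *nfki-1(cer1)*. At an unadjusted p below 0.05, the double mutant had 14 genes above and 3 below *nfki-1(cer1)* larvae, where 8.8% and 10.7% of all genes were, and 7 above and 1 below *ikb-1(nr2027)* larvae, where 6.35% and 9.19% were. The interaction, which is the log2 ratio of the double mutant to one single mutant minus that of the other single mutant to WT, had a median of 2.12 over the 76 genes and 0 over all genes. It was called positive for 1 gene, *ptr-1* (2.56, SE 0.390, adjusted p = 0.00954), where 1.12% of all genes were called positive. With the block it was called positive for 15 genes, where 7.37% of all genes were, and negative for 1, *ptr-2*, where 9.91% of all genes were. Without the block 962 of all genes and none of the 76 were called negative. All L4 samples enter this value once each, so it has no replicate at L4. A gene equally low in all 3 mutants also has a positive interaction. *ptr-10* and *wrt-10*, with all mutants close to each other, had 3.33 and 4.49. The interaction is thus not separate from the levels below WT given above.

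**Figure D4:**
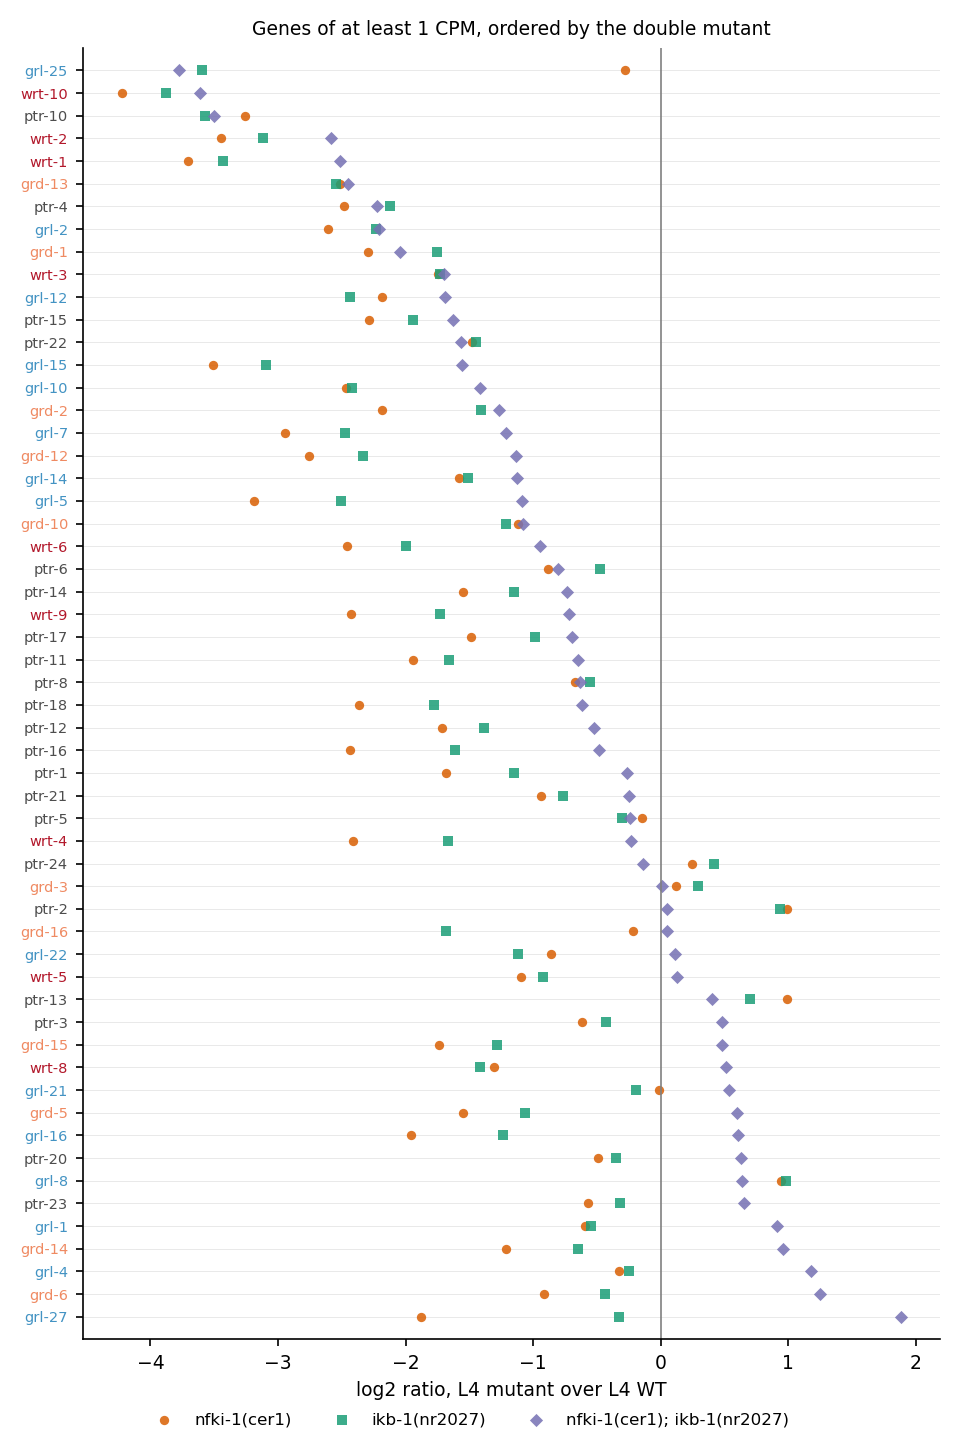
Log2 ratio of each L4 mutant to L4 WT (horizontal) for the 56 genes of at least 1 CPM, ordered from the lowest to the highest ratio in the double mutant, with names coloured by family. *grl-25*, *wrt-10* and *ptr-10* are lowest in the double mutant, *grl-27*, *grd-6* and *grl-4* are highest, and the single mutants lie left of the double mutant for most genes between them.

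Other genes of the pathway were taken from a list of 10, of which 9 were tested. PTC-3, a Patched homolog of the epidermis, and PTC-1, a Patched homolog that acts in the germ line, lay on opposite sides of WT. *ptc-1* was at 236 CPM in *nfki-1(cer1)* larvae, 207 in *ikb-1(nr2027)* larvae and 66.9 in the double mutant, against 52.9 in WT, and it rose in *nfki-1(cer1)* larvae (2.15 on the log2 scale, SE 0.277, adjusted p = 0.00990). *ptc-3* was at 105 CPM in *nfki-1(cer1)* larvae, 136 in *ikb-1(nr2027)* larvae and 262 in the double mutant, against 503 in WT, and did not pass the test (adjusted p of 0.0153 to 0.371), but was called with the block in both single mutants (adjusted p of 0.00303 and 0.00620). At least 2-fold lower in *nfki-1(cer1)* larvae were 5 of 9, namely *ptc-3*, *che-14*, *qua-1*, *hog-1* and *ptd-2*. *che-14*, a Dispatched-like gene needed for apical secretion, was at 11 CPM in *nfki-1(cer1)* larvae, 13.3 in *ikb-1(nr2027)* larvae and 20.2 in the double mutant, against 53.8 in WT, and *qua-1* and *hog-1*, which encode further Hog proteins, had log2 differences of -2.12 and -2.64 in *nfki-1(cer1)* larvae. Without the block, *ptc-1* in *nfki-1(cer1)* larvae was the only one of the 9 that edgeR's test called in an L4 mutant. With it, *che-14* was also called lower in both single mutants (adjusted p of 0.00283 and 0.00492), *qua-1* lower in *nfki-1(cer1)* larvae (0.00584) and *ptc-1* higher in *ikb-1(nr2027)* larvae (0.00437). *tra-1*, which encodes the Gli homolog, was within 0.14 of WT on the log2 scale in every mutant.

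Most tested genes of the lists that mark the molt and the cuticle were also below WT in the L4 mutants. In the double mutant the molting, furrow collagen and precuticle sums were below WT, while the grd and grl sums were above it. The grd and grl sums rest on few genes, as the 3 highest held 88.0% and 87.1% of them in the double mutant. Of 12 tested molting cycle regulators, 11 were at least 2-fold lower in *nfki-1(cer1)* larvae, 9 in *ikb-1(nr2027)* larvae and 6 in the double mutant, and their level summed to 351 CPM in *nfki-1(cer1)* larvae, 418 in *ikb-1(nr2027)* larvae and 504 in the double mutant, against 1901 in WT. Of them *lin-42*, the Period homolog, was called lower in *nfki-1(cer1)* larvae (-2.80 on the log2 scale, edgeR adjusted p = 0.00815), and the fit with the block called 5 of the 12 lower in *nfki-1(cer1)* larvae and 3 in *ikb-1(nr2027)* larvae. The 6 furrow collagens, which form the annular furrows of the cuticle, summed to 88.6 CPM in *nfki-1(cer1)* larvae, 101 in *ikb-1(nr2027)* larvae and 160.5 in the double mutant, against 1524 in WT, all 6 were at least 2-fold lower in each mutant, and the fit with the block called all 6 lower in both single mutants. The 6 precuticle matrix genes summed to 252 CPM in *nfki-1(cer1)* larvae, 288 in *ikb-1(nr2027)* larvae and 270 in the double mutant, against 2697 in WT. Of these, *sym-1* was called lower in *nfki-1(cer1)* larvae (edgeR adjusted p = 0.00836), and the block called 4 of 6 lower in both single mutants. In the other direction, the adult collagen *col-19* was at least 2-fold higher in each mutant, with log2 differences of 3.33 to 3.45 and adjusted p of 0.110 to 0.334, while those of *bli-1* and *bli-2* were -1.44 or lower. *nhr-23*, the nuclear receptor that drives the molt, was 0.56 and 0.48 above WT in the single mutants and 0.82 below it in the double mutant on the log2 scale.

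Cell type markers moved as well. The 10 germ cell markers summed to 2225 CPM in *nfki-1(cer1)* larvae, 2092 in *ikb-1(nr2027)* larvae and 949 in the double mutant, against 274 in WT, all 10 were at least 2-fold higher in each mutant, and none was at 0. Of these, 6 were called in *nfki-1(cer1)* larvae, 2 in *ikb-1(nr2027)* larvae and 0 in the double mutant, and with the block all 10 were called in both single mutants and 0 in the double mutant. The 6 hypodermis markers, which share *dpy-7* and *nhr-25* with the lists above, summed to 635 CPM in *nfki-1(cer1)* larvae, 1063 in *ikb-1(nr2027)* larvae and 3291 in the double mutant, against 5612 in WT, with 5, 5 and 4 of 6 at least 2-fold lower in these strains, and the block called 4 and 3 of them lower in the single mutants. Of the hypodermis markers, the collagens *dpy-5* and *sqt-3* were at 2478 and 2013 CPM in WT and so weigh most in the sum. *elt-3* was near WT in *nfki-1(cer1)* larvae (-0.19 on the log2 scale). The germ cell sum was thus higher in the single mutants than in the double mutant. The hypodermis sum and the sums of all 4 families were lower in the single mutants than in the double mutant. In the double mutant the grd and grl sums were above WT, at 1304 and 2487 CPM against 942 and 2174. Most genes of these families did not follow their sums. The median log2 difference there was 0.005 over the grd genes and -1.09 over the grl genes, with 14 of 27 grl genes at least 2-fold lower. The wrt and ptr sums were below WT there. The 4 intestine markers found in the files summed to 1788 CPM in *nfki-1(cer1)* larvae, 1866 in *ikb-1(nr2027)* larvae and 3257 in the double mutant, against 4250 in WT. The 5 body wall muscle markers summed to 3547 CPM in *nfki-1(cer1)* larvae, 5082 in *ikb-1(nr2027)* larvae and 5802 in the double mutant, against 8507 in WT, and the 5 neuron markers ranged from 177 to 264 CPM in the mutants, against 327 in WT. The 4 pharynx markers ranged from 27.7 to 55.8 CPM in the mutants, against 38.5 in WT. The part of the germ cell share, the place in the molt cycle and the tissue makeup in the lower levels of the 4 families was not tested.

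At L1, other alleles of the same 2 loci were compared with WT. In *nfki-1(cer2)* the median log2 difference of the 76 genes was -0.22, with 10 at least 2-fold lower and 1 at least 2-fold higher than in WT, where 4.78% and 3.07% of all genes were. In *ikb-1(cer9)* the median was 0.07, with 4 at least 2-fold lower and 1 at least 2-fold higher, where 3.89% and 3.45% of all genes were. EdgeR called 0 of the 76 genes in *nfki-1(cer2)* larvae, where 0% of all genes were called, and also 0 in *ikb-1(cer9)* larvae, where 0% were, and DESeq2 and the fit with the block also called 0. At an unadjusted p below 0.05 there were 2 genes in *nfki-1(cer2)* larvae and 3 in *ikb-1(cer9)* larvae by edgeR, where 1.25% and 1.52% of all genes were. Whether the differences of L1 and L4 mutants differ was not tested, since the alleles are not the same.

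The genes of smallest unadjusted p in the L1 comparisons were *grl-21*, *ptr-1* and *ptr-22*. *grl-21* was at 24.2 and 19.1 CPM in *nfki-1(cer2)* larvae and 63.7 and 79.7 CPM in *ikb-1(cer9)* larvae, against 37.7 and 48.9 CPM in WT. The 3 strains did not overlap, and the log2 difference was -1.0 in *nfki-1(cer2)* larvae (SE 0.239) and 0.73 in *ikb-1(cer9)* larvae (SE 0.238), with edgeR adjusted p of 1 in both. *ptr-1* was at 10.8 and 10.9 CPM in *nfki-1(cer2)* larvae against 16.2 and 17.6 CPM in WT, a log2 difference of -0.64 (SE 0.192, edgeR adjusted p = 1). *ptr-22* was at 42.6 and 45.8 CPM in *ikb-1(cer9)* larvae against 28.9 and 18.7 CPM in WT, 0.89 on the log2 scale (SE 0.298, edgeR adjusted p = 1). None of these differences holds after adjustment over all genes.

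The spread between L1 replicates was wide for these genes. Of the 76, 21.1% differed at least 2-fold between the replicates of *nfki-1(cer2)*, 25.0% between those of *ikb-1(cer9)* and 38.2% between those of WT, where 15%, 16.8% and 20.5% of all genes did. *grd-13* was at 19.8 and 91.9 CPM in the *nfki-1(cer2)* replicates and 66.1 and 73.7 CPM in those of *ikb-1(cer9)*, against 26.8 and 103 CPM in those of WT. *grd-3* was at 8.31 and 70.0 CPM in *nfki-1(cer2)* larvae and 33.0 and 47.8 CPM in *ikb-1(cer9)* larvae, against 14.6 and 65.1 CPM in WT. *grd-10* was at 10.2 and 61.0 CPM in *nfki-1(cer2)* larvae and 33.5 and 49.6 CPM in *ikb-1(cer9)* larvae, against 14.5 and 60.6 CPM in WT. In each of these genes, chosen after their values were seen, the first replicate was the lower one in all 3 strains. The *ikb-1(cer9)* libraries lay within the WT range, and those of *nfki-1(cer2)* lay partly outside it. *grl-16* was at 10.2 and 8.21 CPM in *nfki-1(cer2)* larvae and 7.59 and 20.4 CPM in *ikb-1(cer9)* larvae, against 42.3 and 10.2 CPM in WT. This replicate spread is the one that the tests at L4 without the block use. The fit with the block first takes out the part that the strains share.

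**Figure D5:**
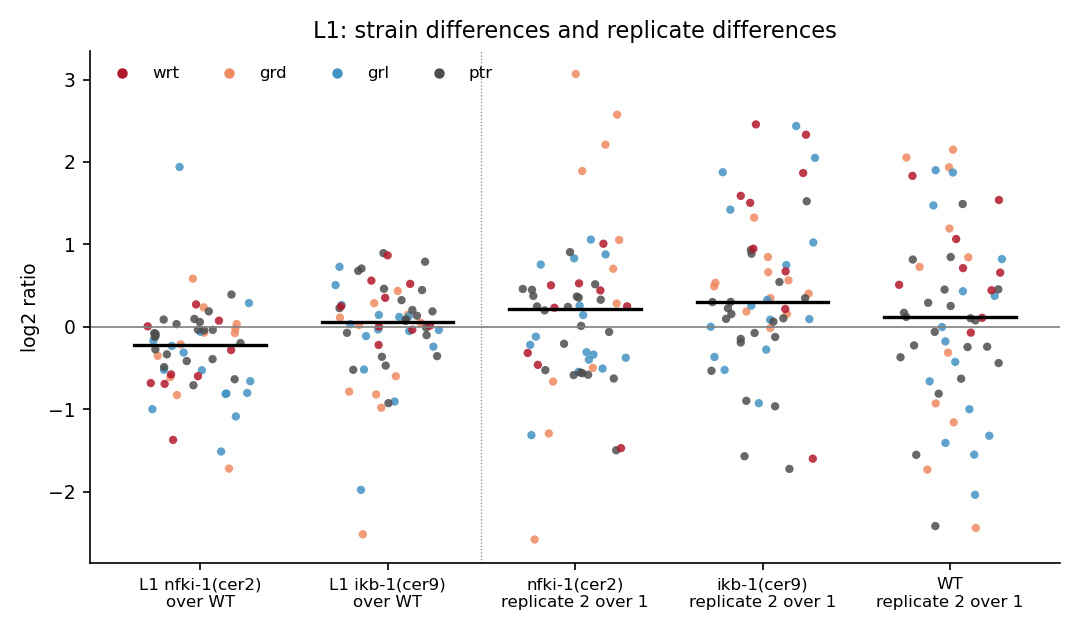
Log2 ratios at L1 of the 56 genes of at least 1 CPM, coloured by family, with 1 point per gene and medians as black bars. The 2 columns on the left are mutant over WT, with medians of -0.22 and 0.06, and the 3 on the right are the second replicate over the first within a strain, which span up to 3.07 in *nfki-1(cer2)* larvae and 2.15 in WT.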

How the data were processed

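RNA-seq reads of whole larvae were trimmed with Trim Galore, aligned to WBcel235 with Bowtie2 and counted per gene with HTSeq by the authors. The deposited values are raw counts, with no normalization. The strand setting and annotation release of the counting are not given in the sources used here. Reads on no gene (13.4% to 20.0% per library) were left out.

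The members and gene lists were chosen with earlier results of these data known. The paired files of each L4 strain were averaged (4 samples) and fitted with the 6 L1 libraries in 1 model of 7 groups with 3 residual degrees of freedom, using edgeR 4.0.16 (R 4.3.3). The model used TMM scaling, filterByExpr with a minimum count of 10, quasi-likelihood tests and the Benjamini-Hochberg adjustment over 21248 genes, at 0.01. P-values measure the spread between L1 libraries, which may be technical. Counting depth limits genes of few reads, and counting error comes on top of that spread.

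The differences between L1 replicates 1 and 2 correlated between strains (r = 0.418 to 0.647), so the numbers were taken to pair the libraries. A fit with the replicate block was an alternative. It takes out the shared difference before the test. L4 samples carry no block term in it, so its stage comparison is with the fitted level of L1 replicate 1. The other alternatives were DESeq2 1.42.0, other scaling, other filters, other thresholds, summed or separate L4 files, and each library left out.

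Genes given with values were the 3 of highest mean CPM in each family, the 3 largest increases and decreases in each L4 mutant and between stages (mean of at least 1 CPM over both groups), and the 2 of smallest p in each L1 comparison. The others given with values (*wrt-2*, *wrt-5*, *wrt-8*, *grd-1*, *grd-10*, *grd-13*, *grl-10*, *ptr-18* and *ptr-19*) were chosen after their values were seen. Exon lengths and positions come from the Ensembl annotation of WBcel235, in which all 80 names matched.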

Additional observations from a re-analysis of the deposited data

Results flagged for a closer look

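For *ptr-1*, the interaction of both mutations at L4 was 2.56 on the log2 scale and passed edgeR's test, which called it positive for 1 of the 76 genes and 1.12% of all genes. Its level was 54.4 CPM in the double mutant, 20.4 in *nfki-1(cer1)* larvae and 29.5 in *ikb-1(nr2027)* larvae, against 65.4 in WT. The share called positive among the 76 genes was close to that among all genes. The test was chosen after the values were seen, and each L4 strain is 1 sample.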

How the results depend on the processing

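The 43 counts that moved by over 1.5 times were the following, in genes of the 76 unless stated. At L4, the 2 files taken as replicates, whose spread apart from their shared difference is below the counting variance, gave, of 63 tested, 49 called lower and 4 higher in *nfki-1(cer1)* larvae, 49 and 4 in *ikb-1(nr2027)* larvae, and 35 and 11 in the double mutant, where 5170, 4846 and 3728 of all genes were called lower. The replicate block gave 11 and 4 called lower in the single mutants, and at an adjusted p below 0.05 gave 29 lower and 2 higher, 25 and 1, and 1 and 0 in the 3 strains. DESeq2 gave 15, 4 and 3 called lower. An adjusted p below 0.05 without the block gave 10 and 3 in the single mutants, and no filter or at least 10 counts in every library gave 1 in *nfki-1(cer1)* larvae. At least 2-fold higher were 7 in *nfki-1(cer1)* larvae with totals alone. With at least 10 counts in every library these were 2, 1 and 3 in the 3 strains, with genes of at least 1 CPM only 0, 0 and 3, and with the files as replicates 3 in *ikb-1(nr2027)* larvae and 3 in the double mutant. At least 2-fold lower, with at least 10 counts in every library, were 30 in *ikb-1(nr2027)* larvae and 18 in the double mutant. A 4-fold threshold left 25, 22 and 14 lower, and 3 higher in the double mutant. Between stages, 3 called lower became 5 with summed L4 files, 6 with totals alone or no filter, 7 with DESeq2 and 10 at an adjusted p below 0.05. With the block they became 6, and 13 at an adjusted p below 0.05. The block sets L4 WT against the fitted level of the first L1 replicate, so these are not the same comparison. With each library left out, those at least 2-fold higher in *nfki-1(cer1)* larvae were 4 to 8, with 8 without the second WT file of L4, and no gene was called in an L4 mutant. The cause of these moves was not tested. Some genes of the 4 families given with values in the L4 mutants changed to above WT with totals alone. These were *grd-6*, *grl-27* and *ptr-23* in *ikb-1(nr2027)* larvae and *grl-23* and *grl-25* in *nfki-1(cer1)* larvae. The same held for *grl-4* in both single mutants and *ptr-24* in the double mutant. The block changed no other call among the L1 comparisons.

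Each L4 strain is 1 sample, so its spread is assumed from L1, where depth was greater. Genes of few reads, such as *grl-23* and *grl-25*, are limited by counting.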
